A study of Mus musculus with 3 samples.

Results

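The genes described here are 39 imprinted genes, chosen by name, all of which had a row in the count files, out of 32531 genes in all. They were measured in RNA on tagged ribosomes, purified from dentate gyrus of adult C57BL/6J mice of the line Penk-TRAP NIDA186, which carries the transgene Penk-EGFP/Rpl10a. In this line a fusion of enhanced green fluorescent protein and the ribosomal protein Rpl10a is made under regulatory DNA of Penk, the proenkephalin gene, and an antibody against the fluorescent part pulls the ribosomes down with the RNA on them. All 3 libraries were purified samples of 1 untreated group, replicates 1 to 3, and the labels do not state that each is a different animal. The p-values therefore measure the spread of these libraries, which could be technical. With no library of input RNA among the samples analysed, each gene was set against the other genes of its own library, and enrichment in tagged cells was not computed.

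An imprinted gene is expressed mainly or only from the copy inherited from the mother or from the father. Most imprinted genes lie in clusters, each governed by a control region that is methylated on 1 parental copy, and many clusters hold a long noncoding RNA that is expressed from the copy on which the coding genes are silent. In the brain, imprinted genes are known for roles in growth, feeding, maternal care and sleep, and loss of the human counterparts of the Snrpn-Ube3a cluster underlies Prader-Willi and Angelman syndromes. The deposited counts do not separate the parental copies, so they give levels only and say nothing of allelic expression.

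The libraries held 5348761, 19195559 and 11059982 counts on genes in replicates 1 to 3, and the 39 imprinted genes took 1.05, 0.453 and 0.645% of them. Replicate 1 had the smallest share of listed reads on genes, 16.3%, against 38.2 and 21.1% in replicates 2 and 3. It also had the largest share outside any gene feature, 50.7%, against 35.4 and 40.5%. By the share on genes replicate 3 lay nearer to replicate 1 than replicate 2 did, and reads mapped to several places made up 32.2, 24.8 and 37.5%. Neuronal markers were present, with 5 of 6 pan-neuronal and 3 of 5 tested granule cell markers (Stxbp6, Prox1 and Rfx3) above the median gene, while 4 of the 9 granule cell markers were too low in at least 1 library to be tested. Penk itself had 58, 1511 and 142 counts and did not pass the threshold (level 1.18, adjusted p = 0.737, limma). Rpl10a stood at 2.70 above the median gene (log2, adjusted p = 0.0108, limma). Other cell types were read as well. Of the oligodendrocyte markers, 3 of 4 tested also lay above the median gene. Of the GABAergic neuron markers 1 of 4 tested did, Sst, at 4.40 (adjusted p = 3.6e-05, limma), and of the CA field markers 0 of 3. In bulk material, fewer cells of a type and less RNA per cell cannot be told apart.

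Of the 39 genes, 26 passed the filter on low counts, which asks for a minimum level in all 3 libraries, and 13 did not. In replicates 1 to 3, 26, 32 and 27 of them had at least 10 counts, and 11, 5 and 7 had 0. Levels are given as CPM per kb, the gene's share of the scaled library (CPM) divided by the exon length in kilobases, which makes genes of different length comparable. The level against the median gene is the log2 of that value minus the median over the 7924 tested genes with an exon length, averaged over the libraries. In the plot of members by library the levels span over 3 orders of magnitude, and for most genes the 3 libraries lie well apart.

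**Figure D1:**
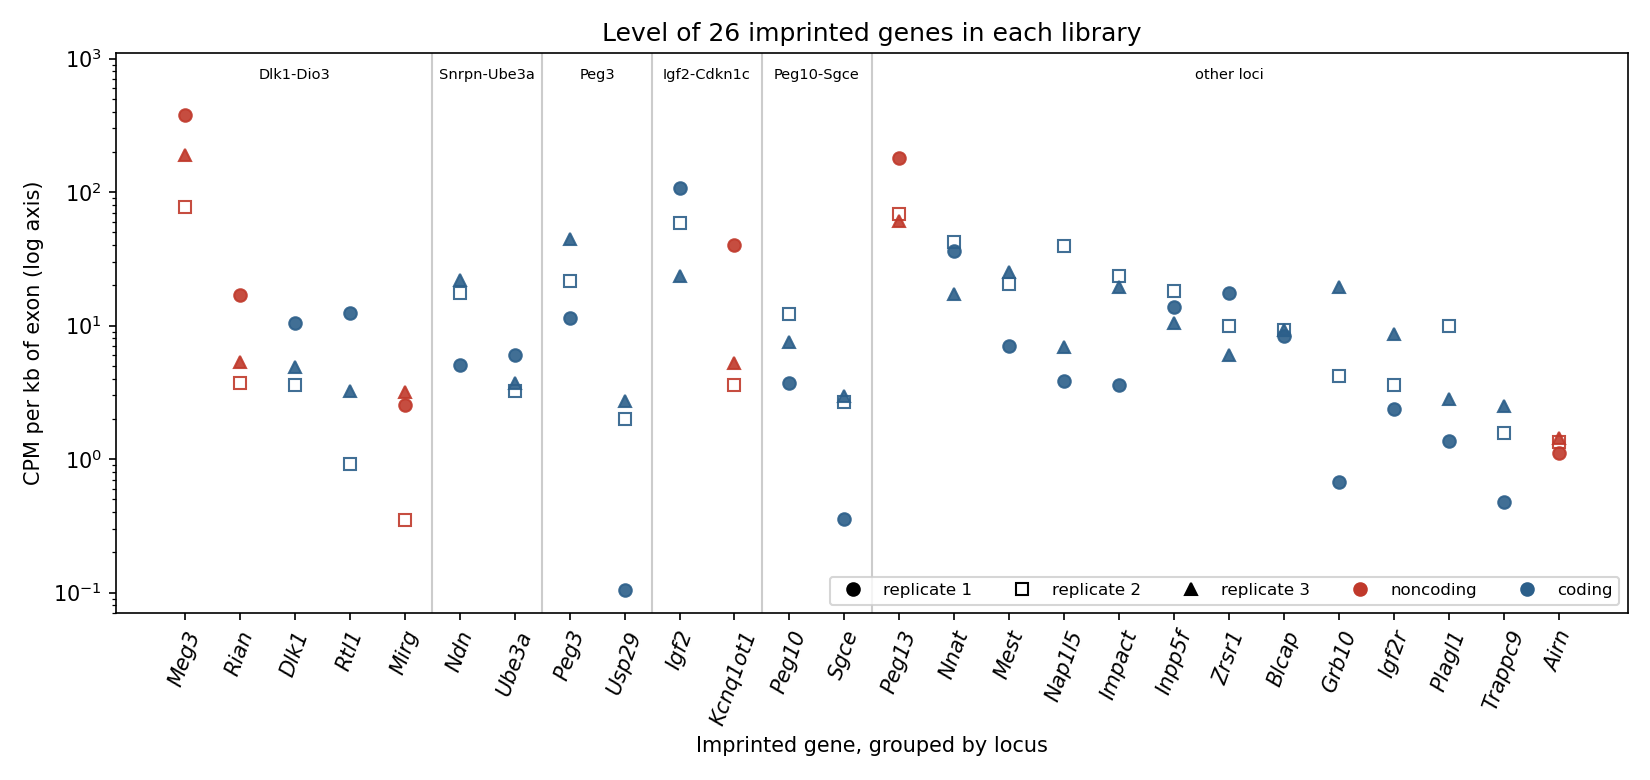
CPM per kb of exon (log axis) of the 26 imprinted genes that passed the filter on low counts, grouped by locus; each symbol is 1 library and the colour separates noncoding from coding genes. Meg3, at 378, 76.7 and 190 in replicates 1 to 3, and Peg13, at 178, 68.7 and 61.2, lie at the top, and the order of the libraries differs between genes.

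The noncoding genes of the Dlk1-Dio3 cluster on chromosome 12 are shown first through the microRNAs inside them, since those small RNAs are a main product by which the cluster is known. By coordinates, the span of Mirg holds 14 microRNA hairpins and that of Rian 3. The span of Rtl1 holds 7, of which 6 lie on the strand opposite to Rtl1, that is on the strand of Meg3 and Rian. The mature sequences below, from RefSeq on GRCm38.p6, give 1 of Meg3, 1 of Rian, 3 of Mirg and 2 from the strand opposite to Rtl1, with the seed, bases 2 to 8, in capitals. Among the mature microRNAs of all members, miR-453 and miR-496a-5p, both of Mirg, were the only pair with the same seed.

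mmu-miR-770-5p: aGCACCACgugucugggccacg
mmu-miR-370-3p: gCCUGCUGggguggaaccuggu
mmu-miR-134-5p: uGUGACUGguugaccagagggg
mmu-miR-453: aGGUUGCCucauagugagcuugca
mmu-miR-496a-5p: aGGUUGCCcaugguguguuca
mmu-miR-127-3p: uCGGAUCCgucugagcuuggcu
mmu-miR-433-3p: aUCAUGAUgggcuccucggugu

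In the count files 27 hairpins inside members had a row of their own, and 5 of these had any count. The 3 hairpins of Rian summed to 0, 47 and 6 counts, and those of Mirg to 0, 0 and 32. The hairpin rows thus held few reads beside those of the host genes.

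Meg3 (ENSMUSG00000021268.17, chromosome 12, 109541001 to 109571726, plus strand, GRCm38) is a maternally expressed long noncoding RNA of this cluster. It had 29019, 31791 and 40178 counts, or 378, 76.7 and 190 CPM per kb in replicates 1 to 3. Replicate 1 was thus highest and replicate 2 lowest, 4.93-fold apart. Even so it lay above the median gene in each library, by 4.87 on the log2 scale (SE 0.50, adjusted p = 4.2e-05, limma), at rank 60 of 7924 tested genes.

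Rian (chromosome 12, 109603940 to 109661716), the host RNA of many small nucleolar RNAs, had 16.9, 3.70 and 5.35 CPM per kb from 1306, 1546 and 1140 counts. Its libraries stood in the order of those of Meg3, replicate 1 highest and replicate 2 lowest. Its level was not distinguishable from the median gene (0.20, SE 0.65, adjusted p = 0.999, limma). Rian minus Meg3 was -4.48, -4.37 and -5.15 on the log2 scale per kb, a mean of -4.67 ± 0.42 (SD, n = 3), so the ratio of these neighbours varied less than either level. Mirg (chromosome 12, 109729764 to 109749460), a microRNA host past Rian, had 2.55, 0.347 and 3.16 CPM per kb from 79, 58 and 269 counts. Here replicate 3 was highest, and Mirg minus Meg3 was -6.93 ± 0.93 (log2, SD, n = 3). Its level of -2.07 against the median gene did not pass the threshold (SE 0.85, adjusted p = 0.363, limma).

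The coding genes of the cluster were lower than Meg3. Dlk1, a membrane protein related to the Notch ligands and known for keeping precursor cells undifferentiated, had 10.4, 3.58 and 4.85 CPM per kb. Rtl1, derived from a retrotransposon, had 12.5, 0.920 and 3.24 CPM per kb from 337, 134 and 241 counts. Rtl1 thus shared the library order of Meg3 and Rian, with a 13.6-fold gap between replicates 1 and 2. Its gene lies on the strand opposite to Meg3 and Rian, and in RefSeq its span overlaps theirs by 6830 and 474 bases. The strand setting of the counting was not given, so reads of Rtl1 and of RNA from the opposite strand cannot be told apart. Dio3, the deiodinase that inactivates thyroid hormone, had 0, 24 and 0 counts, where the count of 0 allows up to 0.707 CPM in replicate 1 and 0.257 in replicate 3, counting error only.

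The Snrpn-Ube3a cluster on chromosome 7 is known for paternally expressed genes and for Ube3a, a ubiquitin ligase expressed from the maternal copy in neurons. Ndn (chromosome 7, 62346569 to 62350262), necdin, a MAGE family protein of postmitotic neurons, was its highest member by the mean, with 5.04, 17.7 and 21.9 CPM per kb from 79, 1495 and 946 counts. Replicate 1 was lowest, the reverse of Meg3. Ube3a (chromosome 7, 59228750 to 59311536) had 6.04, 3.21 and 3.71 CPM per kb, a narrower range with replicate 1 highest, and in replicate 1 it lay above Ndn. Neither differed from the median gene past the threshold, with levels of 1.05 and -0.54 (adjusted p = 0.815 and 0.981, limma).

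The other members of the cluster were at or near 0. Magel2, a second MAGE family gene, had 0, 8 and 1 counts, and Mkrn3, a makorin ring finger gene known from puberty timing, had 0 in each library. Snrpn, which encodes the neuronal splicing protein SmN, had 0, 66 and 4 counts, and Snurf, a short reading frame on the same transcript, had 1, 0 and 0. These last values are uncertain. None of the exonic bases of Snurf (0%) and 65.9% of those of Snrpn are free of another annotated gene. A read over both genes enters the ambiguous class, which held 0.763, 1.60 and 0.873% of listed reads. How many reads of Snrpn were lost in this way was not tested. Other members share exonic bases too, among them Ube3a with 72.7% free, Cdkn1c with 69.3% and Igf2 with 35.5%.

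In the Peg3 cluster on proximal chromosome 7, Peg3 (chromosome 7, 6703892 to 6730431, minus strand), a paternally expressed zinc finger protein known for effects on maternal care and growth, had 11.3, 21.5 and 44.5 CPM per kb from 639, 6556 and 6923 counts. Usp29, a ubiquitin protease gene that starts 147 bases away on the opposite strand, had 0.104, 1.99 and 2.71 CPM per kb from 8, 823 and 572 counts. Both genes were lowest in replicate 1 and highest in replicate 3. Usp29 lay below Peg3 in 3 of 3 libraries, at -6.65, -3.43 and -4.03 on the log2 scale per kb. Zim1, a maternally expressed zinc finger gene beside them, had 0, 43 and 162 counts and so also was highest in replicate 3. Against the median gene Peg3 stood at 1.87 (SE 0.51, adjusted p = 0.216, limma) and Usp29 at -2.83 (SE 0.89, adjusted p = 0.144, limma).

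The start regions of 3 genes are shown, chosen by library order: Meg3 and Kcnq1ot1 were highest in replicate 1 and Peg3 was lowest there. Each is given as the 300 bases that end just past the RefSeq start on GRCm38.p6, read on the gene's strand. These reference sequences do not differ between libraries and give no account of that order. Capitals mark TGCCGC or its reverse complement GCGGCA, the motif that Zfp57, a guardian of methylated imprints, binds when methylated.

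Meg3, chr12:109540746-109541045, plus strand: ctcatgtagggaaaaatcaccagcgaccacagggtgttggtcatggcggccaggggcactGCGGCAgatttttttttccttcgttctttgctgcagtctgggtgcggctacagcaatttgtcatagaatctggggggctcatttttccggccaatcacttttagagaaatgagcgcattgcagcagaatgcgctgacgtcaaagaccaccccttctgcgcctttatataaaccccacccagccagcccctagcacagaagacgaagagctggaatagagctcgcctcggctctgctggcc

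Peg3, chr7:6730370-6730669, minus strand: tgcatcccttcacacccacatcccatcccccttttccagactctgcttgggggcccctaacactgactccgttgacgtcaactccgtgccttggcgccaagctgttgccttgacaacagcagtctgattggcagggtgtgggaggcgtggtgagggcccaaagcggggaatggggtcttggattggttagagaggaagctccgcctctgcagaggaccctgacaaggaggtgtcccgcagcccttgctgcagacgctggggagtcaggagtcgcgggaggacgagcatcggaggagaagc

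Kcnq1ot1, chr7:143296498-143296797, minus strand: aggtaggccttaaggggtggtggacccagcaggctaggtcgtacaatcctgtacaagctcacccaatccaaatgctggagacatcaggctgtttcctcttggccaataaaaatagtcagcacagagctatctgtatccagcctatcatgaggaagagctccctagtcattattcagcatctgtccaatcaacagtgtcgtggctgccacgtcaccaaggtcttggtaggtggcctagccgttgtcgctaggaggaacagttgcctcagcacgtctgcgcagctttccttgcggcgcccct

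The window of Meg3 held 1 match and 13 CpG dinucleotides, and a second window of Meg3 in the table, at an inner start, 0 matches and 1 CpG. Of the others, that of Peg3 held 0 matches and 13 CpG, and that of Kcnq1ot1 0 matches and 9 CpG. The window of Usp29 shares 263 bases with that of Peg3. Of 31 members with a window read, 12 had a match in at least 1. Of the 45 member windows 28.9% held one, against 11.6% of all 32851 windows of this length. Member windows on chromosome 18, where Impact lies, were left out, while no chromosome was left out of all windows. Member windows had a median of 11 CpG, against 7 over all windows, and some members share a window in part or whole, so these shares are a description only. A match is not a binding site, and no match in such a short window says nothing about the control regions of these clusters.

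In the Igf2-Cdkn1c region on distal chromosome 7, Igf2 (ENSMUSG00000048583.16, chromosome 7, 142650766 to 142666816, minus strand), an insulin-like growth factor listed as paternally expressed, had 107, 58.7 and 23.3 CPM per kb from 2605, 7690 and 1560 counts. Replicate 1 was highest and replicate 3 lowest, 4.60-fold apart. It lay above the median gene by 3.13 (SE 0.49, adjusted p = 0.00441, limma), at rank 379. Igf2 is known in adult brain from meninges, choroid plexus and vessels. The 6 meningeal fibroblast markers summed to 149, 70.2 and 48.9 CPM, the same library order as Igf2, led by Col1a2 with 335, 567 and 74 counts and Ogn with 203, 278 and 168. Lum went the other way, with 10, 199 and 80 counts, and Slc6a13 and Slc22a6 had 0 counts in replicate 1. The 5 endothelial markers summed to 24.0, 146 and 283 CPM, the reverse of the order of Igf2. That order was set by Flt1, with 17.2, 89.8 and 227 CPM, and shared by Ly6c1. Cldn5, Pecam1 and Kdr were instead highest in replicate 2, and Kdr, with 3.77, 16.9 and 2.57 CPM, was lowest in replicate 3. The 7 choroid plexus and ependyma markers summed to 8.96, 33.1 and 10.6 CPM, and Ttr, the defining gene of choroid plexus, had 0, 477 and 0 counts. The part of such cells in the Igf2 level was not tested. Only 35.5% of the exonic bases of Igf2 are free of another annotated gene, and over those bases alone its level would be 4.55.

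Kcnq1ot1 (chromosome 7, 143203458 to 143296549, minus strand), the paternally expressed noncoding RNA that silences the neighbouring genes in cis, had 15870, 7708 and 5729 counts. Spread over its 93.1 kb exon this was 40.2, 3.61 and 5.27 CPM per kb, with replicate 1 11.1-fold above replicate 2. Its level of 0.60 did not differ from the median gene (SE 0.69, adjusted p = 0.972, limma), whereas without correction for length it was 4.74 (adjusted p = 5.5e-07). Cdkn1c, the cell cycle inhibitor p57, had 0, 52 and 7 counts. H19, the maternally expressed noncoding RNA that shares its enhancers with Igf2, and Phlda2, a growth-restraining gene of placenta, had 0 counts in each library.

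Summed over their members, the clusters differed in level and in which library was high. The Dlk1-Dio3 cluster summed to 421, 85.8 and 207 CPM per kb, a mean of 238 ± 170 (SD, n = 3), of which Meg3 gave 89.9, 89.4 and 92.0%. The Igf2-Cdkn1c cluster summed to 148, 63.4 and 28.9, the Peg3 cluster to 11.4, 23.7 and 48.9, and the Snrpn-Ube3a cluster to 12.2, 22.3 and 25.8. The Dlk1-Dio3 sum was the highest of these 4 in all 3 libraries, and the Igf2-Cdkn1c sum exceeded the Peg3 sum in replicates 1 and 2 but lay below it in replicate 3. Both orders depended on the length used. Over exonic bases shared with no other gene, the Igf2-Cdkn1c sum was 343, 171 and 71.5, above the Dlk1-Dio3 sum of 93.0 in replicate 2 and above the Peg3 sum of 49.3 in replicate 3. The Peg3 and Snrpn-Ube3a sums changed order between libraries. Any reads of members lost to the ambiguous class, such as those of Snrpn and Snurf, are missing from the sums with either length. Being sums over chosen genes, these values were given no test.

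**Figure D2:**
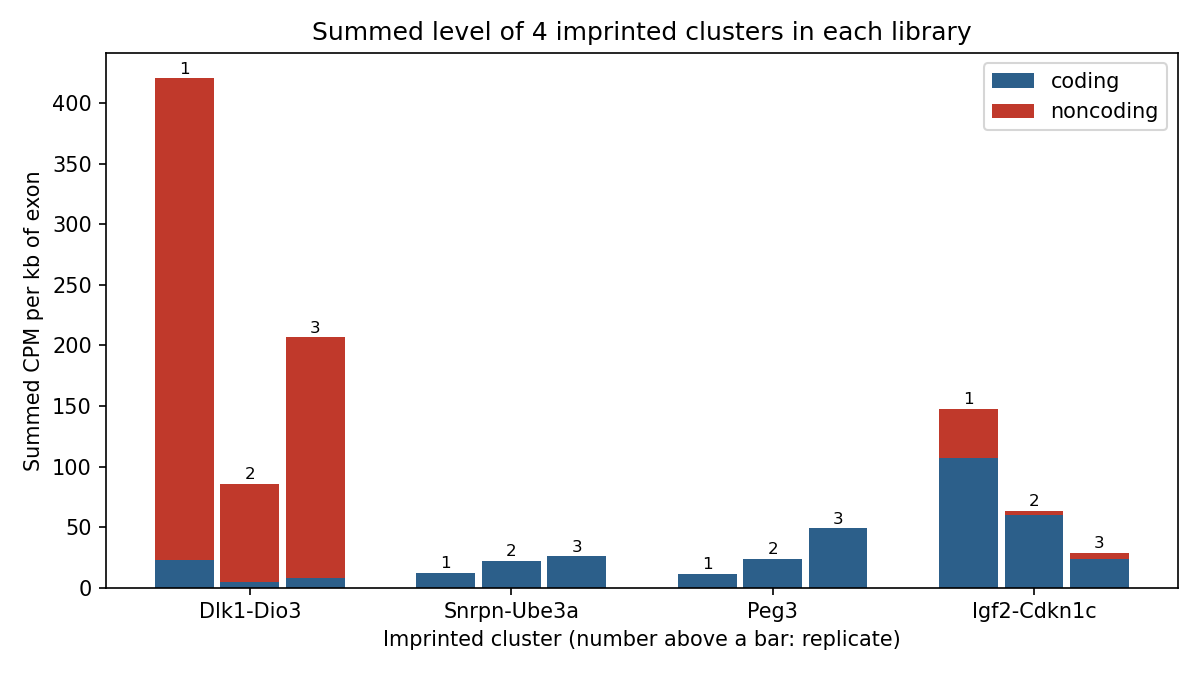
Summed CPM per kb of exon of the members of 4 imprinted clusters, 1 bar per library with its replicate number above, split into noncoding and coding genes. The Dlk1-Dio3 bars, at 421, 85.8 and 207, are almost all noncoding, and the Peg3 and Snrpn-Ube3a bars hold coding genes only and are lowest in replicate 1.

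Among pairs of neighbouring genes elsewhere, the noncoding or nested gene was not always the lower. Peg13 (chromosome 15, 72805600 to 72810324, minus strand), a paternally expressed noncoding RNA inside the span of Trappc9, had 178, 68.7 and 61.2 CPM per kb from 3577, 7434 and 3379 counts. It lay above the median gene by 3.91 (SE 0.47, adjusted p = 2.6e-04, limma), at rank 162. Trappc9, a vesicle tethering subunit, had 0.475, 1.58 and 2.51 CPM per kb from 16, 287 and 233 counts. Peg13 thus exceeded its host by 8.50, 5.43 and 4.60 on the log2 scale. Both lie on the same strand, so unspliced Trappc9 RNA over Peg13 and Peg13 itself cannot be told apart.

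Nnat (chromosome 2, 157560078 to 157562522), neuronatin, a small membrane protein of the endoplasmic reticulum, lies inside the span of Blcap on the opposite strand. It had 36.3, 42.1 and 17.3 CPM per kb, and its level of 2.31 just missed the threshold (SE 0.47, adjusted p = 0.0518, limma). Blcap had 8.37, 9.20 and 9.25 CPM per kb and was the steadiest member, with counts that varied no more than sampling noise (adjusted p = 0.636, Poisson chi-square). Nnat exceeded Blcap in 3 of 3 libraries by 1.74 ± 0.72 (log2 per kb, n = 3).

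Zrsr1, a retrocopied splicing factor gene inside the span of Commd1 on the opposite strand, had 17.5, 9.96 and 6.06 CPM per kb. Commd1, which acts in copper handling and protein sorting, had 80, 93 and 5 counts, or 3.18, 0.684 and 0.0721 CPM per kb, and did not pass the filter. Both were highest in replicate 1 and lowest in replicate 3, and Zrsr1 exceeded Commd1 by 2.45, 3.82 and 5.96 on the log2 scale. Without a stated strand setting, reads of these genes where their exons overlap cannot be told apart.

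Airn (chromosome 17, 12741311 to 12860136, plus strand), the noncoding RNA antisense to Igf2r, had 1.11, 1.35 and 1.43 CPM per kb from 17, 111 and 60 counts, with no variation beyond sampling noise (adjusted p = 0.668, Poisson chi-square). Its level was -2.18 (SE 0.76, adjusted p = 0.268, limma). Igf2r, the receptor that clears Igf2, had 2.38, 3.56 and 8.59 CPM per kb and Airn minus Igf2r was -1.05, -1.36 and -2.55 on the log2 scale. Per kb, Airn rests on the 3.6 kb of exon in the annotation.

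Peg10, a second retrotransposon-derived gene, starts 99 bases from Sgce, which encodes epsilon-sarcoglycan, a protein mutated in myoclonus-dystonia, on the opposite strand. Peg10 had 3.71, 12.1 and 7.56 CPM per kb and Sgce 0.355, 2.67 and 2.96, both lowest in replicate 1. The values of Sgce came from 16, 649 and 367 counts. Peg10 exceeded Sgce in 3 of 3 libraries by 3.34, 2.17 and 1.35 on the log2 scale. Their neighbours Calcr, the calcitonin receptor gene, and Asb4, an ankyrin repeat gene, had 0 counts in each library and 0, 4 and 0. Grb10, an adaptor that restrains insulin signalling and is expressed from the paternal copy in neurons, ranged most widely of the genes that passed the filter. It had 0.674, 4.19 and 19.3 CPM per kb, 28.6-fold apart, from 26, 873 and 2047 counts. Ddc, the enzyme of the last step of dopamine and serotonin synthesis, lies beside it and had 0, 24 and 1 counts. Of 8 markers of monoamine and hypothalamic neurons, 7 had 0 counts in each library.

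**Figure D3:**
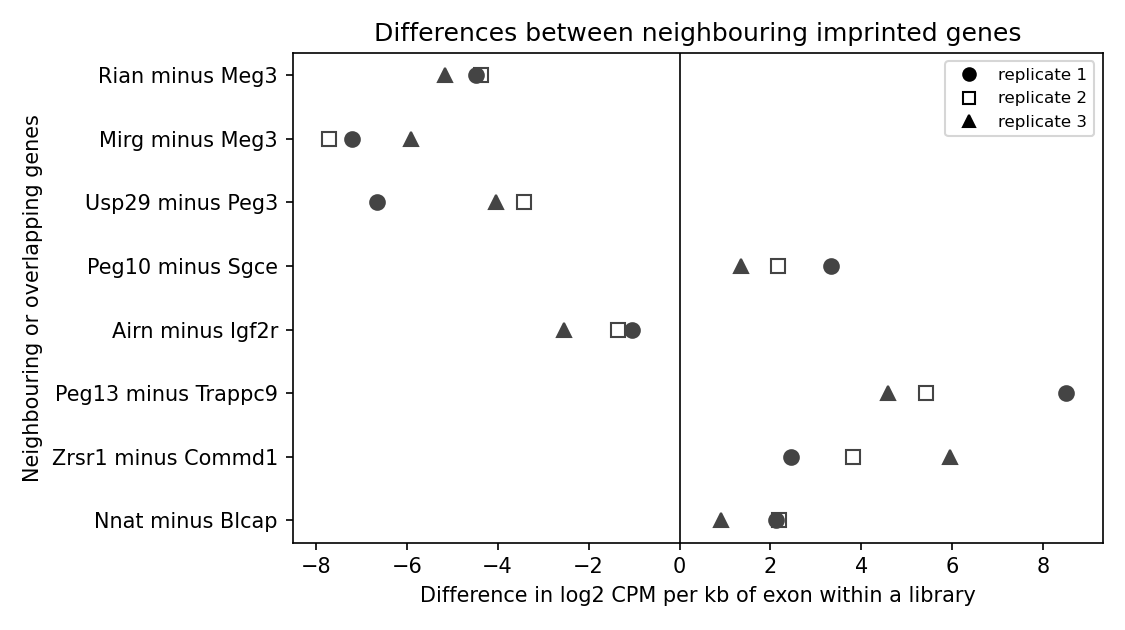
Difference in log2 CPM per kb of exon between neighbouring or overlapping imprinted genes within a library, 1 symbol per library. Of 15 pairs examined, the 8 with counts of both genes in every library are plotted, which leaves out Snurf minus Snrpn, whose sign changed between libraries. The sign was the same in all 3 libraries for each of the 8, the distance varying from -7.70 for Mirg minus Meg3 in replicate 2 to 8.50 for Peg13 minus Trappc9 in replicate 1.

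The remaining members were single coding genes at middling levels. Mest, a hydrolase-like protein, had 6.99, 20.5 and 25.1 CPM per kb, and Impact, a regulator of the translation kinase Gcn2, had 3.59, 23.3 and 19.6. Inpp5f, an inositol phosphatase, had 13.7, 18.2 and 10.5. Nap1l5, of the nucleosome assembly protein family, had 3.84, 39.7 and 6.96, and Plagl1, a zinc finger factor that restrains growth, 1.36, 9.92 and 2.80. Nap1l5 and Plagl1 thus stood 10.4-fold and 7.31-fold higher in replicate 2 than in replicate 1. None of these 5 differed from the median gene past the threshold.

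Counted over the 26 tested members, 3 lay above the median gene (Meg3, Peg13 and Igf2), 0 below and 23 could not be told from it at an adjusted p of 0.05 (limma). Of all 7924 tested genes 9.76% lay above and 3.74% below, so the members' counts were near the background. At an unadjusted p under 0.05, 4 members lay above and 1 below, beside 14.7 and 9.21% of all tested genes. The median level of the tested members was 0.39, beside -0.14 over all tested genes. The smallest exact sign-flip p with 3 libraries is 0.25, so the limma values rest on the spread pooled over genes. Meg3, Peg13 and Igf2 lay above whichever replicate was left out. Without replicate 1, however, 8 of 27 tested members lay above, with Ndn, Peg3, Nnat, Mest and Impact added, beside 14.6% of the 10425 genes tested in that fit.

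**Figure D4:**
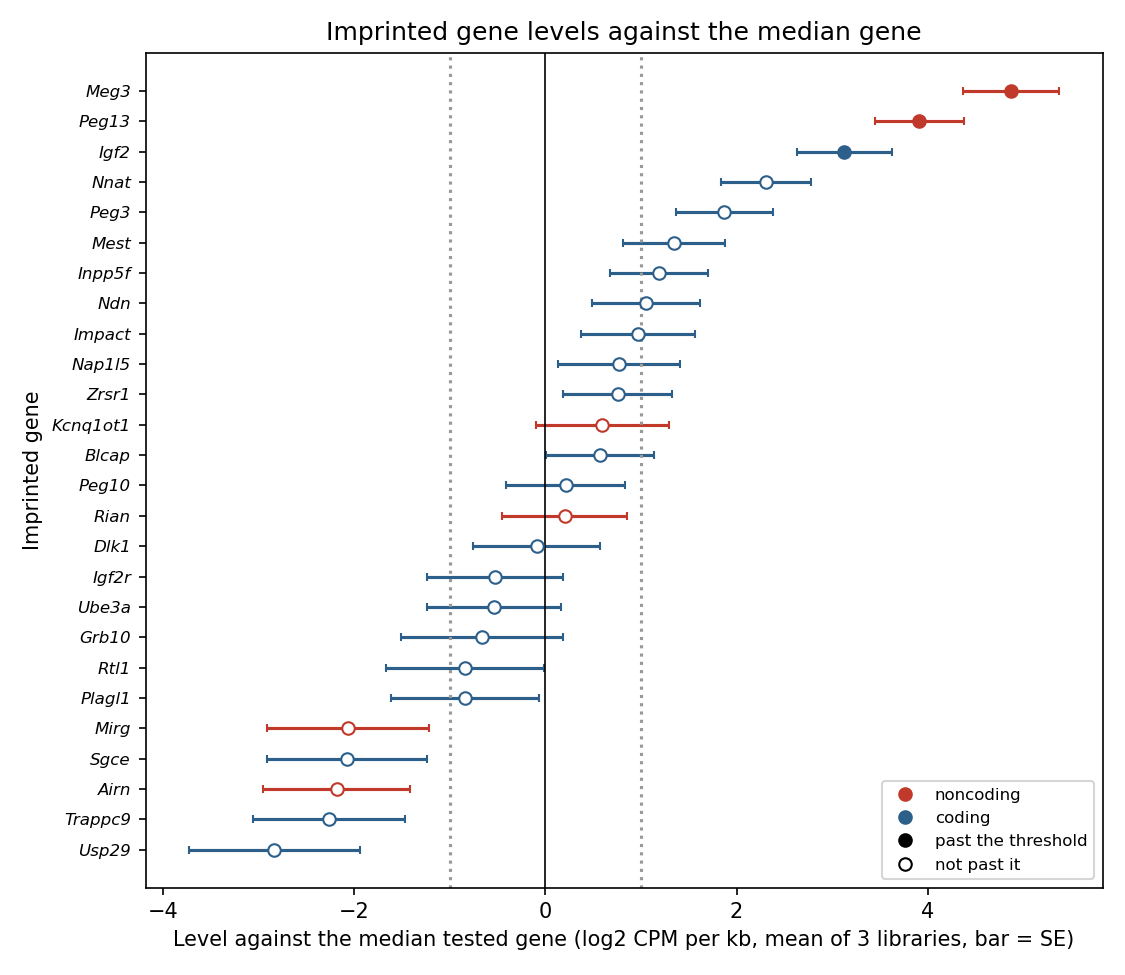
Level of each tested imprinted gene against the median tested gene (log2 CPM per kb, mean of 3 libraries; bars are SE; dotted lines mark the log2 threshold of 1). Filled symbols are Meg3, Peg13 and Igf2, at 4.87, 3.91 and 3.13, the genes past the threshold, and 23 genes are open.

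The median level of the tested noncoding members was 0.40, and that of the tested coding members 0.39. Of 6 tested noncoding members 2 lay above the median gene, beside 7.52% of 133 tested long noncoding genes. Of 20 coding members 1 did, beside 9.78% of 7761 tested protein-coding genes. Counts this small were not tested against those shares. Over all members with a row, the median noncoding gene exceeded the median coding gene by 3.02, 0.30 and 0.76 on the log2 scale per kb, a mean of 1.36 ± 1.46 (SD, n = 3). That difference includes the coding genes at 0: over the members that passed the filter it was 2.23, -1.44 and -0.61, so its sign was positive in replicate 1 only. By CPM, 4 of 6 noncoding members (Meg3, Rian, Kcnq1ot1 and Peg13) were highest in replicate 1, beside 46.6% of 133 tested long noncoding genes, and 5 of 20 coding members were, beside 36.7% of 7761 tested protein-coding genes. Those 5 were Dlk1, Rtl1, Ube3a, Igf2 and Zrsr1. Conversely, 13 of 20 coding members were lowest in replicate 1, beside 43.1% of protein-coding genes, and 1 of 6 noncoding members, Airn. Members were given no test against these shares. These counts were 4 and 12 to 14 under the other scalings of the libraries tried.

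The gap between replicate 1 and the mean of the other libraries reached 3.20 for Kcnq1ot1, 2.83 for the coding gene Rtl1, 1.92 for Rian and 1.65 for Meg3 on the log2 scale, and -4.37 for Usp29, -3.70 for Grb10 and -2.93 for Sgce. Malat1, a nuclear noncoding RNA that is not imprinted, had a gap of 1.86, with 6.71, 1.98 and 3.47% of gene counts in replicates 1 to 3. Of the list of nuclear noncoding RNAs to which it belongs, 4 of 7 tested lay above the median gene, namely Malat1, Xist, Snhg11 and Meg3. The list holds 2 of the imprinted genes described here, Meg3 and Kcnq1ot1. Snhg11, another neuronal noncoding RNA, had a gap of 2.38, but Neat1 one of -1.68 and Xist one of 0.079. The share of reads outside gene features was also highest in replicate 1, at 50.7%. The part of nuclear RNA or of library quality in these gaps was not tested. Counts of 24 of 26 members varied between libraries beyond sampling noise, as did those of 97.4% of all 8510 genes that passed the filter (Poisson chi-square), so variation as such was the rule.

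**Figure D5:**
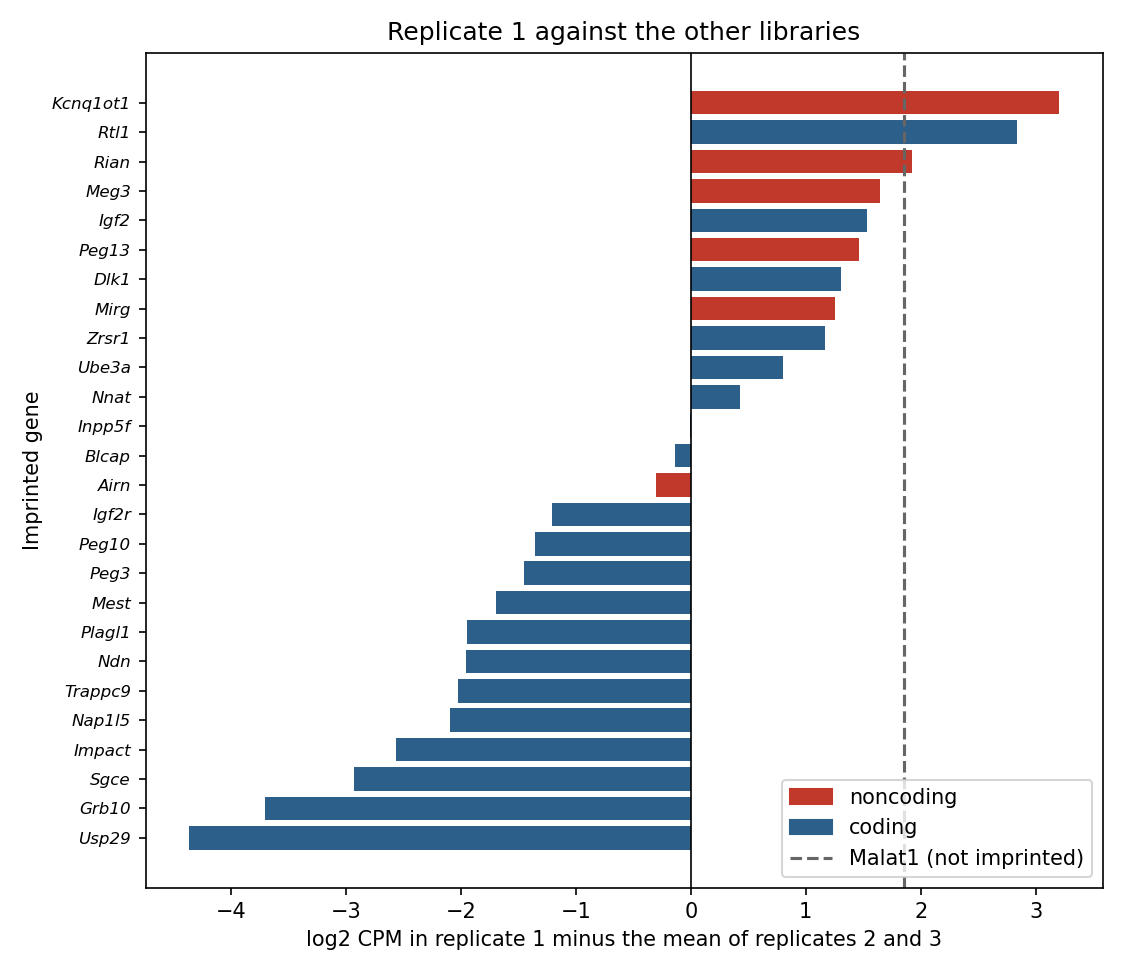
log2 CPM in replicate 1 minus the mean of replicates 2 and 3 for the 26 tested imprinted genes, coloured by class; the dashed line is Malat1 at 1.86. Kcnq1ot1 at 3.20 and Rtl1 at 2.83 lie at one end and Usp29 at -4.37 at the other.

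Members were also grouped by the parental copy listed for each, which was not measured here and may not hold in this tissue. Of 23 paternally expressed members 18 passed the filter, with a median level of 0.76, and 2 lay above the median gene, Igf2 and Peg13. Of 9 maternally expressed members 5 passed, with a median level of -0.53, and 1 lay above, Meg3. Of 7 whose imprint depends on tissue or transcript 3 passed, at a median of -0.66, and 0 lay above. Of all tested genes 9.76% lay above. The groups are small, and neither their counts nor the medians were given a test.

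Imprinted genes outside this list were also read. Of 41 with a row 18 were tested and, beside 9.76% of all tested genes, 3 lay above the median gene. These were Ppp1r9a, an actin-binding protein of spines next to the Peg10-Sgce cluster, with 73.6, 83.7 and 196 CPM per kb, Rasgrf1, a calcium-regulated exchange factor, with 81.5, 97.1 and 141, and Gnas, the stimulatory G protein subunit, with 78.5, 127 and 73.0. Their levels were 4.14, 4.10 and 3.90 (adjusted p = 1.0e-04, 7.7e-05 and 1.5e-04, limma). Unlike Meg3, none of these 3 was highest in replicate 1. Of 17 factors that maintain or erase imprints 12 were tested and 0 lay above or below, beside 9.76 and 3.74% of all tested genes. Tet2, which oxidises methylcytosine, was highest by the mean, with 42.4, 11.2 and 18.5 CPM per kb, followed by Zfp445, a zinc finger guardian of imprints, with 12.6, 11.4 and 10.2, and Ctcf, the insulator protein, with 3.83, 17.7 and 9.08. In replicate 2 Tet2 lay below both. Zfp57, the other zinc finger guardian, had 0, 68 and 263 counts.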

How the data were processed

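Each library was deposited as whole-number read counts per gene symbol; the authors' counts were not normalised or pooled, per the file contents. STAR 2.0.0e, HTSeq and mm10 are named in the submitters' processing notes. The annotation and strand setting are not given in the sources used here. Rows of the counter's summary were left out, which kept 16.3, 38.2 and 21.1% of listed reads. Counts were scaled with TMM (edgeR 4.0.16, R 4.3.3; factors 0.793, 1.19 and 1.06) and turned into CPM and log2 CPM (prior count 2). They were divided by exon length from GENCODE vM21 (GRCm38), which may not be the authors' annotation; 93.1% of the 8510 genes kept by filterByExpr had a length. Members, lists and pairs were chosen with earlier results of these data known. For levels, limma 3.58.1 was fitted with an intercept and a mean-variance trend, and TREAT asked for more than 1 on the log2 scale (Benjamini-Hochberg over all 7924 genes), since 1 group allows no contrast of counts. Variation was tested with a Poisson chi-square of the counts over all kept genes. Named in full were the genes past the threshold and all noncoding members, with Malat1, Penk and Rpl10a; of the lists of other imprinted genes and of imprint maintenance factors, the 3 highest by mean CPM per kb. Zfp57 and the cell type marker and nuclear RNA genes named beside Malat1 were picked after their values were seen. DESeq2 1.42.0 size factors were among the alternatives. Both tests recovered known answers on simulated data, but those had less spread between libraries than these. The simulation therefore does not show how either test behaves at the spread seen here. Floors (3 counts) cover counting error only, as PCR copies are not independent molecules. Figures were drawn with matplotlib 3.10.9.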

Additional observations from a re-analysis of the deposited data

How the results depend on the processing

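The calls of Meg3, Igf2 and Peg13 above the median gene held in all 10 alternatives. The mean of noncoding minus coding kept its sign where it was computed, which was in all but the setting without a filter. The count above was 11 without a filter, 5 without correction for exon length, and 3 to 8 with 1 replicate left out. The count below was 4 without a filter and 0 to 1 with 1 replicate left out. Leaving out 1 replicate moved the sums (CPM per kb) to 164 to 285 for Dlk1-Dio3, 51.9 to 102 for Igf2-Cdkn1c, 17.2 to 40.7 for Peg3 and 16.8 to 27.0 for Snrpn-Ube3a, noncoding minus coding to 0.53 to 1.80, and the members varying beyond noise to 23 to 25. Without correction for length the sums (CPM) were 4132, 1885, 377 and 145 in that order, and with unshared exon length Igf2-Cdkn1c summed to 195. Over kept members only, chosen after seeing the data, noncoding minus coding was 0.061 by the mean (SD 1.93), and negative in replicates 2 and 3, so its sign was not stable.

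The levels that changed sign were of genes not past the threshold in the report. Without a filter these were Dlk1 1.84, Rtl1 1.09, Ube3a 1.40, Grb10 1.27, Plagl1 1.09 and Igf2r 1.41. Without correction for length these were Dlk1 0.0082, Ube3a 1.43, Grb10 0.12, Blcap -0.23, Igf2r 0.29 and Nap1l5 -0.75, and Snurf minus Snrpn -1.55. With 1 replicate left out, levels ran from -0.098 to 0.19 for Dlk1, -1.36 to 0.038 for Rtl1, -0.0088 to 0.61 for Rian, -0.039 to 1.22 for Kcnq1ot1, -0.23 to 1.10 for Peg10, -0.23 to 1.90 for Nap1l5, -1.68 to 1.01 for Grb10, -1.65 to 0.24 for Plagl1 and -0.90 to 0.31 for Igf2r, and Snurf minus Snrpn from -0.018 to 3.17. Thinned to the smallest total, Rian was -0.030 and Peg10 -0.078. Without a filter, genes of low counts entered the median against which levels are set. Meg3 then moved from 4.87 to 6.80, Rian from 0.20 to 2.13 and Igf2r from -0.53 to 1.41. The cause of the other changes of sign was not tested. Low depth in replicate 1, with a floor of 0.707 CPM, limits the low members. No paired analysis was possible because the samples form 1 group.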
